A study of Mus musculus with 4 samples.

Results

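Expression of 9 genes was followed in mouse thymocytes: the coreceptor genes Cd4, Cd8a and Cd8b1, and 6 regulator genes, Runx1, Runx3, Cbfb, Zbtb7b, Patz1 and Tox. They were taken by gene symbol, and all 9 were found among the 35976 symbols counted. Bulk RNA-seq was done on CD4 and CD8a double-positive (DP) thymocytes that were sorted as positive for CD24, a marker of immature thymocytes, and negative for surface TCRb. Control mice carried intact Cxxc1 (Cxxc1 +/+) with the Lck-cre transgene, and knockout (KO) mice carried floxed Cxxc1 (Cxxc1 F/F) with the same transgene, so that both groups expressed Cre. There were 2 libraries per genotype, each made from 10 ng of total RNA. The labels give neither the ages of the mice nor the Lck promoter that drives Cre, and separate animals are not stated either, so p-values reflect the spread of these samples alone, and that spread may be technical. In the text, a level is a read count scaled to the library's size (CPM), and a log2 fold change is KO over control ± its standard error.

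CD4 and CD8 are surface proteins that bind MHC class II and class I molecules and bring the kinase LCK to the T cell receptor. CD8 on thymocytes is a dimer of an alpha chain, from Cd8a, and a beta chain, from Cd8b1. Runt-domain factors (RUNX) bind DNA together with the shared partner CBFB and act at the Cd4 silencer and at Cd8 enhancers. ThPOK, from Zbtb7b, directs the CD4 lineage, RUNX3 directs the CD8 lineage, MAZR, from Patz1, binds Cd8 control regions, and TOX is needed for positive selection into the CD4 lineage. CXXC1, the targeted protein, has a zinc finger that binds unmethylated CpG dinucleotides and belongs to SETD1 histone H3 lysine 4 methyltransferase complexes.

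Promoter sequence was available in the RefSeq table (GRCm38.p6) for 6 of the 9 genes, Cd8a, Runx1, Runx3, Cbfb, Zbtb7b and Patz1, in 10 windows of 300 bases, each from 250 bases before to 50 after an annotated start. CpG dinucleotides, the letters that the CXXC finger reads, separated these windows. The Cd8a window held 3, none of them in the 250 bases before the start, while the median was 7 over all 32851 windows and 15 over the windows of tested genes. The Cbfb window held 30, more than 88.3% of all windows have, and the second window of Runx1, at its downstream start, held 35. The 250 bases before the start of these 3 are shown 5′ to 3′ with every CpG in capitals, at chr6:71373177-71373426 (plus strand) for Cd8a, chr16:92697330-92697579 (minus strand) for Runx1 and chr8:105170424-105170673 (plus strand) for Cbfb.
Cd8a: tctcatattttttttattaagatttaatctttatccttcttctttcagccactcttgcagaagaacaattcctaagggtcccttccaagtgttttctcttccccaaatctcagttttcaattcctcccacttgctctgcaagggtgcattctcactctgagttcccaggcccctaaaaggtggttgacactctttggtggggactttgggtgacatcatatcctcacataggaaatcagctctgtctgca
Runx1: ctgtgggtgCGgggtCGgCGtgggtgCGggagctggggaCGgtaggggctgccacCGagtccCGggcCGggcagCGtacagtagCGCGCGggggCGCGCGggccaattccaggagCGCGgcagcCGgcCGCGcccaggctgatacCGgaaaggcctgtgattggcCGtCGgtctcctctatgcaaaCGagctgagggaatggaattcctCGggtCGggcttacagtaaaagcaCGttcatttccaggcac
Cbfb: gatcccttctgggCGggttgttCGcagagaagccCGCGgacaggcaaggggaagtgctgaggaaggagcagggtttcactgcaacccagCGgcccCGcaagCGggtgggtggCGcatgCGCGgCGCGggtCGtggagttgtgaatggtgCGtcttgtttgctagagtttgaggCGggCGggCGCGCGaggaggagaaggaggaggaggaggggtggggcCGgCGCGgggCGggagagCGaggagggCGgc

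The remaining windows spanned the same range. The upstream, distal start of Runx1 had 2 CpG dinucleotides, and the distal start of Runx3 had 8 against 45 at its proximal start, a count above that of 98.1% of all windows. Patz1 had 14 and 33 at its 2 starts, and Zbtb7b had 8 and 7. The counts describe the letters only, since DNA methylation and CXXC1 binding were not measured in these libraries.

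**Figure D1:**
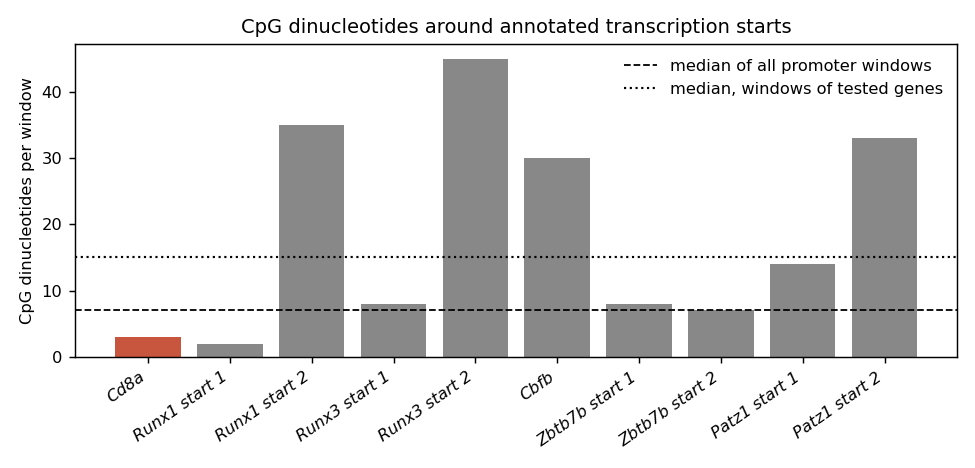
CpG dinucleotides (vertical axis, count per window of 300 bases) around each annotated start of the 6 genes with a promoter window; the dashed line is the median of all windows, 7, and the dotted line that of the windows of tested genes, 15. Cd8a (3) and the first start of Runx1 (2) lie below both lines, the first starts of Runx3 and Patz1 and both starts of Zbtb7b lie below the dotted one, and the second starts of Runx1, Runx3 and Patz1 and the start of Cbfb lie at 30 to 45.

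The distal windows of Runx1 and Runx3 also shared a pair of RUNX core motifs. The motif TGTGGT was searched on both strands, and 16.8% of all windows held it at least once and 1.81% at least 2 times. Both distal windows held it 2 times, on the minus strand of the window and 2 bases apart, whereas both proximal windows held none. The stretches of 26 bases, with the motif (read as ACCACA) in capitals, were chr16:92826031-92826056 (minus strand) for Runx1, with the first match 29 bases after the start, and chr4:135120501-135120526 (plus strand) for Runx3, with the first match 134 bases before it.
Runx1 distal: ctcataaacaACCACAgaACCACAag
Runx3 distal: tggtccctcaACCACAgaACCACAag
The Cd8a window held no match, and the second window of Zbtb7b held 1. The E-box letters CANNTG, whose matches shared no bases with those of TGTGGT in the 10 windows, were found 3 times in the Cd8a window, and 72.3% of all windows held at least 1. A match is a run of letters and not a measured site.

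Library totals ranged from 12150508 counts in control 1 to 36243182 in KO 1, and 3 counts, taken as the detection floor, corresponded to 0.0828 to 0.247 CPM. Such floors cover counting error only. The targeted gene Cxxc1 was at 110.7 CPM in control 1, 53.5 CPM in control 2, 35.7 CPM in KO 1 and 39.4 CPM in KO 2, with a log2 fold change of -1.12 ± 0.34 (edgeR quasi-likelihood test, adjusted p = 0.199). The genotypes did not overlap. Counts were made per gene and not per exon, and the extent of Cxxc1 deletion in the sorted KO cells was not tested. Of the 20389 genes tested, 92 changed, which is 0.451%: 0.181% were lower and 0.270% higher in the KO, and the median log2 fold change over all tested genes was -0.044. At an unadjusted p below 0.05 there were 2830 genes (13.9% of those tested, 6.91% lower and 6.97% higher), the background for every unadjusted count given for a list.

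Among the 9 genes, Cd4 and Cd8a fell in KO DP thymocytes, none rose and 7 did not pass the test. The 2 called genes are 22.2% of the 9. The log2 fold changes of Cd4 and Cd8a were close to each other, Cd8b1 was lower in both KO libraries without passing the test, and the level of Runx1 differed little between the 4 libraries. Libraries of the genotypes did not overlap for 5 of the 9 genes, all lower in the KO, and this held for 46.8% of all tested genes, so the share of 5 in 9 is near the background.

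Cd4 (chromosome 6, 124864693 to 124888247 on GRCm38.p6) was at 893.5 and 895.9 CPM in control 1 and 2, against 142 and 277 CPM in KO 1 and 2. The control libraries were nearly equal, both KO libraries were far below them, and the KO libraries differed from each other by more than the controls did. The means were 895 ± 1.68 and 209.8 ± 95.5 CPM (SD, n = 2), and the log2 fold change was -2.09 ± 0.32 with a 95% interval of -2.82 to -1.36 (edgeR quasi-likelihood test across all genes, adjusted p = 0.0355). On the linear scale that interval runs from 0.14 to 0.39 of the control level.

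Cd8a (chromosome 6, 71373427 to 71379171) was at 1258 and 1811 CPM in control 1 and 2, against 258 and 478 CPM in KO 1 and 2. Control 2 was the highest library and KO 1 the lowest, and the genotypes did not overlap. Cd8a went from 1534 ± 391 to 368 ± 155 CPM (SD, n = 2), a log2 fold change of -2.06 ± 0.34 with a 95% interval of -2.82 to -1.30 (edgeR, adjusted p = 0.0442).

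Cd8b1 (chromosome 6, 71322788 to 71337492) lies next to Cd8a and encodes its partner chain. Its levels were 1010 and 1297 CPM in control 1 and 2, against 231 and 528 CPM in KO 1 and 2. Both KO libraries were again below both controls, and KO 2 was over the level of KO 1. The log2 fold change was -1.60 ± 0.37, with an interval of -2.44 to -0.77, which did not pass over all genes in edgeR (adjusted p = 0.109) and did in DESeq2 (adjusted p = 0.000135). The fold changes of Cd4, Cd8a and Cd8b1 were not the extremes of the table, since 9.30%, 9.50% and 12.7% of tested genes had a lower value. Those shares include genes with few reads and wide standard errors. Only 6.91% of tested genes were lower at an unadjusted p below 0.05, and 0.181% were called lower.

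The calls of Cd4 and Cd8a without KO replicate 1, the library with the lowest coreceptor levels, depended on the filter. On the same 20389 genes the log2 fold changes were -1.65 and -1.65, and neither passed (edgeR, adjusted p = 0.0858 and 0.129). With the filter recomputed on the 3 libraries left, they were -1.64 and -1.63, and both passed (edgeR, adjusted p = 0.000889 and 0.00094). Scaling by library totals alone also ended both calls, at -2.04 and -2.01 (adjusted p = 0.0509 and 0.0566).

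**Figure D2:**
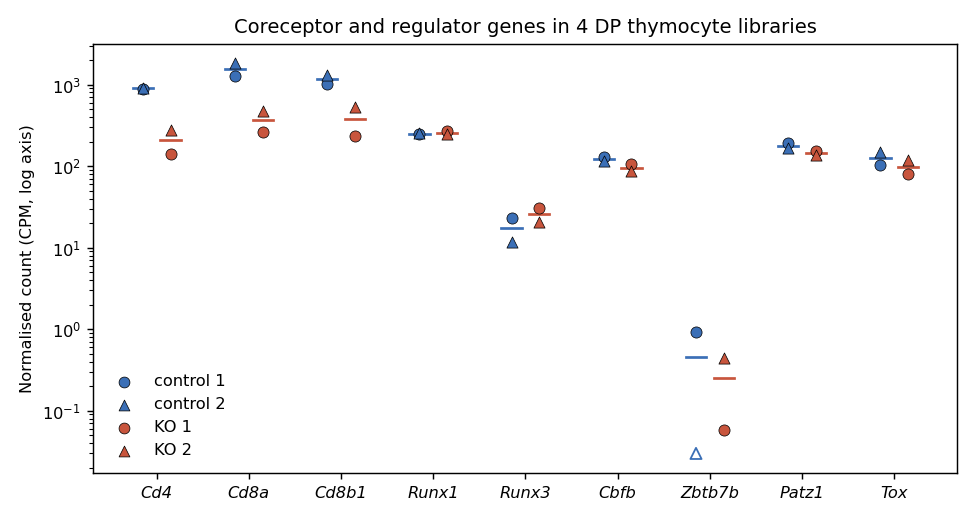
Normalised counts (vertical axis, CPM on a log axis) of the 9 genes in each library, with control in blue and KO in red, replicate 1 as circles, replicate 2 as triangles and group means as bars; the open triangle drawn at the bottom is Zbtb7b in control 2, where no read was counted. Cd4, Cd8a and Cd8b1 separate by genotype, whereas the points of Runx1 lie between 245.5 and 269.7 CPM in all 4 libraries.

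Ratios within a library, which need no scaling between libraries, described how the coreceptors moved relative to each other. The count of Cd4 divided by that of Cd8a was 0.710 and 0.495 in the controls against 0.551 and 0.580 in KO 1 and 2, so that both KO ratios lay between the control ratios. The mean log2 ratio differed by -0.068 between genotypes (exact permutation test, two-sided, p = 1, adjusted p = 1 over 4 ratios). Cd8a divided by Cd8b1 was 1.25 and 1.40 in the controls and 1.12 and 0.905 in the KO libraries. Both KO ratios were below both control ratios, by -0.39 on the log2 scale (exact permutation p = 0.333, the smallest that 2 against 2 libraries allow, adjusted p = 0.667).

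Calls among the 6 regulator genes were absent: 0 passed the edgeR test, 0 had an unadjusted p below 0.05, and DESeq2 called 0. Runx1 (chromosome 16, 92601466 to 92826074), which represses Cd4 at the stage before DP, was at 246.0 and 255.6 CPM in the controls against 269.7 and 245.5 CPM in the KO libraries. All 4 libraries overlapped within a narrow band. The log2 fold change was 0.039 ± 0.21 with a 95% interval of -0.44 to 0.52, and its sign turned with a minimum of 5 CPM, at -0.036.

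Runx3 (chromosome 4, 135120645 to 135177990) was at 23.2 and 11.8 CPM in the controls against 30.9 and 20.5 CPM in the KO libraries. KO 2 lay below control 1, so the genotypes overlapped, and the spread within each genotype was as large as the difference between means. The log2 fold change was 0.56 ± 0.41 with an interval of -0.35 to 1.48 (edgeR, adjusted p = 0.612). The interval is wide: it contains no change as well as a rise larger than 2 on the linear scale (upper bound 2.78). Without control replicate 1 the value was 1.12 and without control replicate 2 it was 0.15, neither called.

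Cbfb (chromosome 8, 105170674 to 105217989), the partner subunit of all RUNX factors, was at 128 and 116 CPM in the controls against 105 and 86.4 CPM in the KO libraries. The genotypes did not overlap, by a small margin, and the log2 fold change of -0.35 ± 0.23 did not pass (interval -0.86 to 0.16, edgeR adjusted p = 0.552). The count of Runx1 divided by that of Cbfb was 1.92 and 2.199 in the controls and 2.57 and 2.84 in the KO libraries, a difference of 0.40 in the mean log2 ratio (exact permutation p = 0.333, adjusted p = 0.667). The ratio of Runx1 to Runx3 was 10.6 and 21.6 in the controls and 8.74 and 12.0 in the KO libraries, and these overlapped (difference -0.56, exact permutation p = 0.667, adjusted p = 0.889).

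Patz1 (chromosome 11, 3289131 to 3309083), the MAZR gene, was at 189.7 and 165 CPM in the controls against 153 and 136 CPM in the KO libraries. Both KO libraries were below both controls, and the log2 fold change was -0.30 ± 0.22 (interval -0.79 to 0.20, edgeR adjusted p = 0.617). Tox (chromosome 4, 6686353 to 6991557) was at 104 and 148 CPM in the controls against 79.3 and 117 CPM in the KO libraries. KO 2 lay between the controls, and the log2 fold change was -0.36 ± 0.28 (interval -0.99 to 0.27, adjusted p = 0.639). For both genes the lower bound of the interval allows a fall to 0.577 and 0.505 of the control level.

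Zbtb7b (chromosome 3, 89377644 to 89393673), the ThPOK gene, was at the edge of detection. The controls had 11 and 0 reads (0.925 and 0 CPM) and the KO libraries 2 and 16 (0.0574 and 0.449 CPM). One library of each genotype was at or under the floor of 3 counts and one was above it, and the genotypes overlapped. The fitted log2 fold change of -0.81 ± 2.40 has an interval of -6.21 to 4.60, so neither a direction nor a size can be read from these counts.

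**Figure D3:**
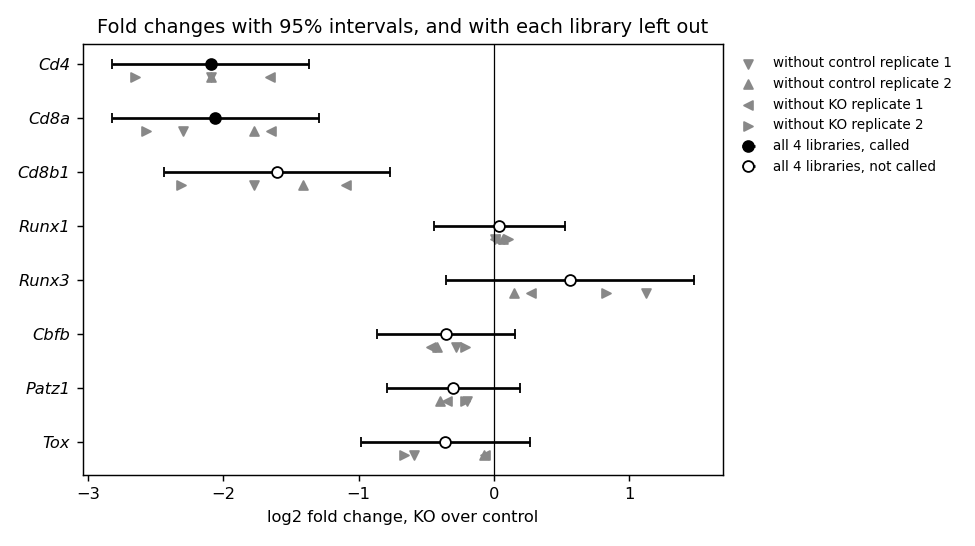
Log2 fold changes (horizontal axis, KO over control) of 8 genes, with 95% intervals as bars, filled circles for called genes and open circles for the others; grey triangles give the value with each library left out, and Zbtb7b is not drawn. The intervals of Cd4, Cd8a and Cd8b1 lie below 0, those of the 5 regulators include 0, and the values without KO replicate 1 are the smallest falls of each coreceptor gene.

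Levels can be set between genes only per length, here as CPM divided by the length in kb of all exons of the gene in the GENCODE M21 basic set. In the controls the order was Cd8b1 (778 ± 137 CPM per kb), Cd8a (489.9 ± 125) and Cd4 (288 ± 0.546), then Cbfb (42.0 ± 2.96), Patz1 (37.4 ± 3.67), Runx1 (33.7 ± 0.911) and Tox (31.8 ± 7.93), then Runx3 (4.19 ± 1.93) and Zbtb7b (0.0968 ± 0.137), all SD with n = 2. Cbfb and Patz1, and Patz1 to Tox, did not differ beyond their spread. In the KO libraries the coreceptor genes had the first 3 places, at 256 ± 141, 118 ± 49.6 and 67.5 ± 30.7 CPM per kb, then came Runx1 (34.6 ± 2.30), Cbfb (32.9 ± 4.54), Patz1 (30.4 ± 2.53), Tox (24.8 ± 6.75), Runx3 (6.15 ± 1.76) and Zbtb7b (0.0531 ± 0.0580). The standard deviations of neighbours in that order overlapped down to Tox. Within each KO library, however, the coreceptor order was the same: Cd8b1 was at 156 and 356, Cd8a at 82.4 and 153 and Cd4 at 45.8 and 89.2 CPM per kb in KO 1 and 2, all above Runx1 (36.2 and 32.9).

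Some of the regulator genes overlap other annotated genes, and none of the sources used here gives the strand setting of the counting. The span of Tox holds Gm11802, on the opposite strand in GENCODE with 260 shared exon bases, which had 708 and 4907 counts in the controls and 2738 and 3158 in the KO libraries, beside 1232, 5131, 2763 and 4167 for Tox. Patz1 shares 88 exon bases with Gm11944 on its own strand and 605 with Gm12592 on the opposite strand, a symbol without a count here. The span of Zbtb7b holds Gm15417 on the opposite strand, with 0 shared exon bases in GENCODE. Gm15417 had 3 and 0 reads in the controls and 9 and 30 in the KO libraries. The spans of Cbfb and Runx1 overlap AI225912 and Gm30281. Reads on shared bases cannot be assigned to either gene with certainty. No other RefSeq gene overlaps the spans of Cd4, Cd8a, Cd8b1 or Runx3.

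Genes beside the coreceptor loci were examined within 100 kb. Around Cd4, 13 protein-coding neighbours were tested and edgeR called 0, with 4 lower and 2 higher at an unadjusted p below 0.05 (13.9% over all genes), while DESeq2 called Ptms lower and Lrrc23 higher. Gpr162, the nearest gene, was at 63.9 and 43.9 CPM in the controls against 20.03 and 35.5 CPM in the KO libraries (-0.96 ± 0.34, edgeR adjusted p = 0.270). Lag3, a receptor gene related to Cd4, was at 7.65 and 13.3 CPM in the controls against 5.74 and 5.87 CPM in the KO libraries (-0.86 ± 0.47, edgeR adjusted p = 0.465). Ptms had -0.90 ± 0.24, P3h3 had -0.88 ± 0.38 and Cdca3 had -0.65 ± 0.27 (edgeR adjusted p = 0.161, 0.350 and 0.345). On the higher side, Lrrc23 was at 3.11 and 5.13 CPM in the controls against 21.8 and 12.3 CPM in the KO libraries (2.03 ± 0.49, edgeR adjusted p = 0.115), the smallest p of the 13. Spsb2 had 2.25 ± 1.17 and Cops7a 0.80 ± 0.34 (edgeR adjusted p = 0.440 and 0.350). Eno2, Tpi1, Usp5, Gnb3 and Mlf2 had log2 fold changes of -0.19 to 0.22. The libraries of the genotypes did not overlap for 5 neighbours below and 4 above the controls, 9 of 13 beside 46.8% of all tested genes, and the median over the 13 was -0.025.

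Of the 4 tested neighbours of Cd8a and Cd8b1, edgeR called 0, with 1 at an unadjusted p below 0.05, and DESeq2 called Krcc1 higher. Rmnd5a, a ubiquitin ligase subunit gene 9.46 kb from Cd8a, was at 683 and 920.9 CPM in the controls against 541 and 844.5 CPM in the KO libraries, which overlapped (-0.21 ± 0.28, edgeR adjusted p = 0.821). Krcc1, on the side of Cd8b1, was at 43.6 and 44.6 CPM in the controls against 97.4 and 103 CPM in the KO libraries, the opposite direction to the coreceptor genes (1.18 ± 0.22, edgeR adjusted p = 0.0689). Gm1070 had 1.204 ± 0.80 and Smyd1 had -0.55 ± 0.53, both with wide standard errors at low levels.

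**Figure D4:**
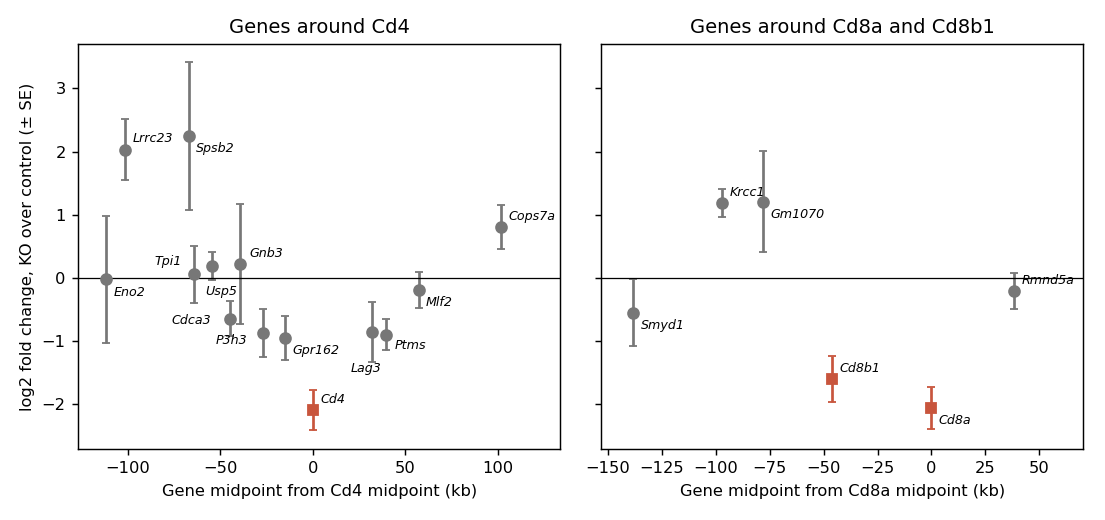
Log2 fold change (vertical axis, KO over control ± standard error) of protein-coding genes near Cd4 (left) and near Cd8a and Cd8b1 (right), against the distance of each gene's midpoint from that of Cd4 or Cd8a (horizontal axis, kb); squares are the coreceptor genes and circles their neighbours. The coreceptor genes have the lowest values in both panels, and Krcc1 and Gm1070 lie above 0 at 1.18 and 1.204.

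Other genes of the pathway were taken from lists. Of 21 further factors that act on the Cd4 or Cd8 loci or on lineage choice, 0 were called by edgeR, 4 were lower at an unadjusted p below 0.05 (6.91% over all genes) and none was higher, with a median of -0.26. Satb1 and Socs1 were among those that DESeq2 called lower. Satb1, a chromatin organiser gene with the highest counts of the list, was at 4112 and 1908 CPM on average (-1.11 ± 0.28, edgeR adjusted p = 0.138), and Tcf7, the TCF1 gene, was at 3274 and 2627 CPM (-0.32 ± 0.23, edgeR adjusted p = 0.621). Of 20 chromatin factors known at the 2 loci, 0 were called by edgeR or DESeq2 and 0 had an edgeR unadjusted p below 0.05, with a median of 0.0082. Arid1a, a SWI/SNF subunit gene, was at 1399 and 1006 CPM and Chd4, the Mi-2 beta gene, at 1061 and 1135 CPM. Of 12 tested paralogues and corepressor genes of the RUNX and TOX families, 0 were called by edgeR and 4 were lower at an unadjusted p below 0.05 (6.91% over all genes), with a median of -0.43, while DESeq2 called Aes and Tox3 lower. The 2 with the highest counts, Aes and Tle3 of the Groucho corepressor family, had -1.25 ± 0.27 and 0.0056 ± 0.28 (edgeR adjusted p = 0.0927 and 0.997).

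Among 10 genes of coreceptor signalling partners, 1 fell (0.181% over all genes) and 9 did not pass, with a median of -0.43. At an unadjusted p below 0.05, 4 were lower and 0 higher (6.91% and 6.97% over all genes). Cd3d, the CD3 delta chain gene, fell from 169 ± 25.3 to 64.6 ± 5.97 CPM (-1.39 ± 0.23, edgeR adjusted p = 0.0466). The other CD3 chain genes were not called. Cd3g was higher in both KO libraries, at 552 and 782 CPM in the controls against 1071 and 827 CPM (0.51 ± 0.26, edgeR adjusted p = 0.440). Cd3e overlapped between the genotypes (-0.19 ± 0.24), and Cd247 was lower in both KO libraries (-0.64 ± 0.25). Lck, whose kinase product binds the tails of CD4 and CD8 alpha, was at 1060 and 1084 CPM in the controls against 632 and 722 CPM in the KO libraries. Both KO libraries of Lck were below both controls, and the log2 fold change of -0.66 ± 0.23 did not pass (edgeR adjusted p = 0.244). DESeq2 called 3 of the 10 lower, Cd3d, Lck and Zap70.

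Stage markers were read beside the coreceptor genes. All 13 DP-stage markers were tested, of which 3 fell (0.181% over all genes), 0 rose and 10 did not pass, with a median of -1.37. At an unadjusted p below 0.05, 9 were lower and 0 higher (6.91% and 6.97% over all genes). The called ones were Dntt, the terminal transferase gene (-2.06 ± 0.28), Plxnd1, a semaphorin receptor gene (-2.21 ± 0.28), and Ets2, a transcription factor gene (-1.84 ± 0.23), with edgeR adjusted p-values of 0.025, 0.0177 and 0.0177. Rag1 and Rag2 of this list were read in every library. Rag1 was at 4967 and 7055 CPM in the controls against 2997 and 4488 CPM in KO 1 and 2 (-0.68 ± 0.30, edgeR adjusted p = 0.357). Rag2 was at 265 and 322 CPM against 224 and 312 CPM (-0.13 ± 0.25, edgeR adjusted p = 0.889). DESeq2 called 8 of the 13 lower. Of 12 tested markers of the double-negative and immature single-positive stages, 3 rose (0.270% over all genes), 0 fell and 9 did not pass, with a median of 1.19. At an unadjusted p below 0.05, 6 were higher and 1 lower. Il2ra was at 9.84 and 9.03 CPM in the controls against 200.6 and 97.0 CPM in the KO libraries. The log2 fold change of Il2ra, the interleukin-2 receptor alpha gene, was 3.98 ± 0.37 (edgeR adjusted p = 0.00616). Notch3 rose by 2.04 ± 0.28 and the Notch pathway gene Dtx1 by 2.53 ± 0.41 (edgeR adjusted p = 0.025 and 0.0408). KO 1 had the highest level of all 3 and the lowest level of all 3 coreceptor genes.

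Other members of that list were also higher in both KO libraries without passing in edgeR. Notch1 was at 653 and 387 CPM in the controls against 2313 and 1084 CPM in the KO libraries, and Ptcra, the pre-TCR alpha gene, at 13.5 and 4.27 against 49.9 and 26.5 CPM. DESeq2 called 6 of the 12 higher, Dtx1, Hes1, Il2ra, Notch1, Notch3 and Ptcra, and Cd44 lower. The summed level of all 15 genes was 3588 and 2769 CPM in the controls against 5518 and 3347 CPM in the KO libraries, an overlap that rested on the cycling gene Mki67 (2239 to 2749 against 1764 to 2317 CPM). Without Mki67, a sum taken after its values were seen, the controls were at 838.5 and 531 CPM and the KO libraries at 3201 and 1583 CPM, with no overlap. Most of each of these sums was Notch1, which edgeR did not call (adjusted p = 0.107), so the sum mainly repeats that gene. The progenitor markers Kit and Lyl1 were at 3.03 to 7.86 and 0.344 to 0.588 CPM over the 4 libraries. The part of such cells in the coreceptor result was not tested. In bulk samples, fewer cells of a type and less RNA per cell cannot be told apart. The cells of both genotypes had been gated on surface CD4 and CD8a protein.

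Mature single-positive markers were mostly lower in the KO, and lineage-committed markers gave mixed values. Of 13 tested mature single-positive markers, Il7r rose and Cd5 fell (5.58 ± 0.65 and -2.11 ± 0.25, edgeR adjusted p = 0.0152 for both), and the list median was -1.24. At an unadjusted p below 0.05, 7 were lower and 2 higher (6.91% and 6.97% over all genes). DESeq2 called Cd2, Cd5, Cd69, Dusp2, Foxo1 and Gimap6 lower and Il7r higher. Klf2 (-1.56 ± 0.71), Ccr7 (-1.34 ± 1.29), Gimap3 (1.59 ± 0.63) and Gimap4 (1.31 ± 0.68) were at 8.98 CPM or less in every library. Cd5, in contrast, was at 105.5 and 129.9 CPM in the controls. The part of mature cells in these values was not tested. Of 7 tested CD8 cytotoxic and NK-like markers, 1 rose (0.270% over all genes). It was Gzma, a granule protease gene, at 11.4 and 9.40 CPM in the controls against 34.9 and 49.7 CPM in the KO libraries (2.03 ± 0.33, edgeR adjusted p = 0.0442). Klrd1 and Xcl1 of that list had no reads in any library. Of 6 tested CD4 helper and regulatory markers 0 were called by edgeR or DESeq2, with 0 at an unadjusted p below 0.05, and Icos and Tnfrsf4 had the highest counts, at 2.87 to 13.9 and 4.05 to 7.81 CPM.

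Markers of other cells were low. Summed levels in the controls and KO libraries were 8.09 to 12.4 and 9.01 to 12.6 CPM for 7 B cell markers, with most counts from Cd79b and Cd79a, and 61.4 to 70.9 and 72.3 to 101.8 CPM for 12 myeloid and dendritic markers, with most counts from Cst3 and Itgam. For 7 erythroid markers they were 9.39 to 15.3 and 26.7 to 38.7 CPM, with Hba-a1 at 0 in both controls and at 14.6 CPM in KO 1 and 6.49 CPM in KO 2, the 1 gene of the 7 called by edgeR. Hba-a2, Hbb-bs and Hbb-bt also had 0 reads in both controls, 4 of the 7 were higher at an unadjusted p below 0.05, and DESeq2 called Hba-a1, Hba-a2 and Hbb-bs higher. The sums of 10 epithelial and stromal markers were 134 to 165 and 117 to 153 CPM, mostly Pecam1, with Epcam next, and those of 7 stress genes, mostly Dnajb1 and Junb, were 75.2 to 125 and 86.6 to 90.9 CPM. By edgeR 0 of the 5 B cell, 10 myeloid, 9 stromal and 6 stress genes tested were called. At an unadjusted p below 0.05 there were 0, 1, 2 and 1. DESeq2 called Epcam higher and none of the others. The 2 stromal genes at that unadjusted threshold went opposite ways, Epcam higher (2.11 ± 0.65) and Psmb11 lower (-5.29 ± 2.08). Psmb11 was at 1.18 and 1.39 CPM in the controls against 0.0574 and 0 CPM in KO 1 and 2. The median of the 9 stromal genes was -0.96. The part of any of these other cells in the coreceptor values was not tested.

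**Figure D5:**
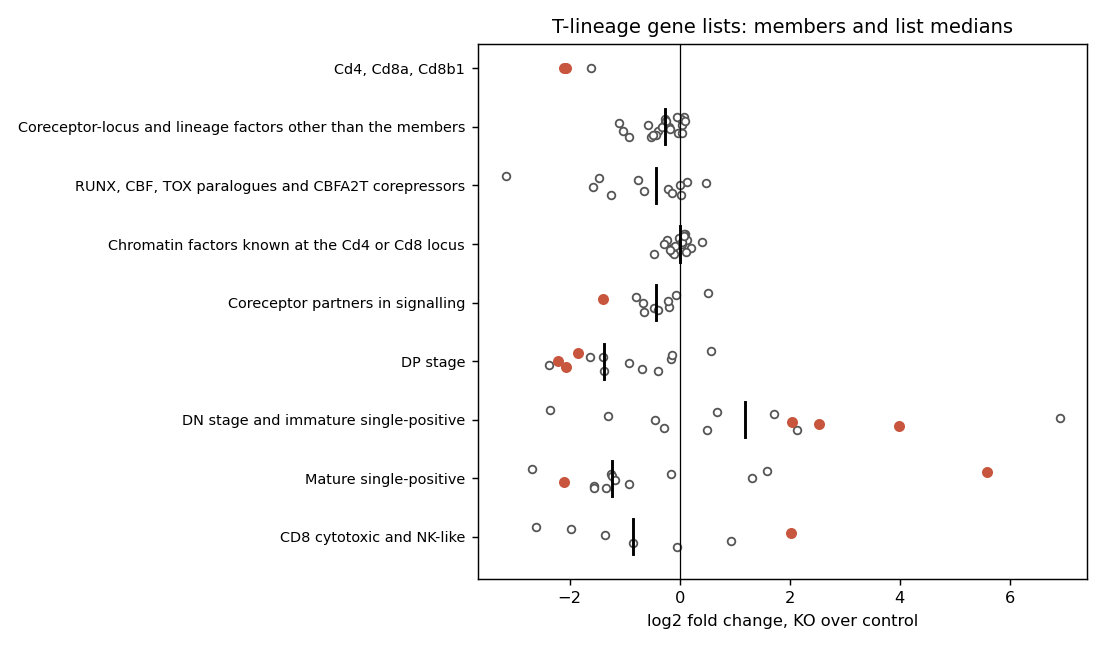
Log2 fold changes (horizontal axis, KO over control) of the coreceptor genes (top row) and of the tested members of 8 gene lists, with red points for called genes, open points for others and black bars for list medians; the vertical scatter has no meaning, and the point beyond 6 is Hes1, with 0 reads in control 1. The coreceptor genes lie at -2.09 to -1.60, the chromatin list is centred at 0.0082 and the DP-stage list at -1.37.

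The genes whose pattern over the 4 libraries was most like that of each coreceptor gene were ranked by the distance between centred log2 CPM values among 8552 genes of at least 10 CPM. Nearest to Cd4 were Hsd11b1, Nav2, Lsp1, Xrra1 and Plxnd1, at distances of 0.198 to 0.278 on the log2 scale. Cd8a took rank 11 and Cd8b1 rank 18 by distance from Cd4. Nearest to Cd8a were Ntrk3, the Tec-family kinase gene Txk, Cfap74, Dntt and Hsd11b1 (0.133 to 0.301). Cd8b1 was nearest to Scarf1, Dok2, the transcriptional repressor gene Bcl6, Arl4c and Rasgrp4 (0.180 to 0.281). Of these, Nav2, Lsp1, Plxnd1 and Dntt were called lower. A fall in the KO was part of the pattern by which these genes were chosen, so the calls add no support. The distance rests on 4 libraries and is a description.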

How the data were processed

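Per the labels' protocols, total RNA was extracted with TRIzol from sorted cells and libraries were built with the SMART-seq Standard kit. The authors deposited raw read counts per gene symbol, 1 file per library. Per the file headers reads were aligned with HISAT2, and per the submitters' processing notes the tools were featureCounts 2.0.8, edgeR 3.36.0, cutadapt 4.0 and HISAT2 2.2.1 and the build was mm10. None of the sources used here gives the annotation, the strand setting or the handling of multi-mapped reads.

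All 35976 symbols entered edgeR 4.0.16 (under R 4.3.3): filterByExpr (minimum count 10, minimum total 15), which kept 20389 genes, TMM scaling (factors 0.962 to 1.06), and the quasi-likelihood test with genotype as the only term, two-sided, adjusted over all tested genes by Benjamini and Hochberg's method at 0.05. The standard error is the log2 fold change divided by the square root of F, and 95% intervals use the moderated degrees of freedom. The function was tested on simulated data. Alternatives were other scalings and filters, DESeq2 1.42.0, edgeR's newer setting, a replicate block and each library left out. Ratios used counts plus 0.5. No library repeated another: chi-square over degrees of freedom was 51.9 or more for each pair. Gene positions come from RefSeq (GRCm38.p6, the same assembly as mm10).

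The 9 genes and the 14 lists were chosen with earlier results of these data known. Text names all 9 genes, the called members of each list or its 2 highest members, neighbours within 100 kb, the 5 genes nearest in pattern, Cxxc1 and Lck. Rag1, Rag2, Kit, Lyl1, Pecam1, Psmb11, Klrd1, Xcl1, Hes1, Mki67, Notch1, Ptcra and genes called by DESeq2 alone were named after their values were seen. A gene of these lists is not reported by name here.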

Additional observations from a re-analysis of the deposited data

How the results depend on the processing

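Over all genes, 92 (55 higher) were called with all libraries and the settings above, 920 with no filter on low counts (529 higher), 231 with a minimum of 5 CPM (110 higher), 947 with DESeq2 (441 higher), 1599 with the replicate block (934 higher), and 9 to 619 with 1 library left out (555 and 619 without control replicate 1 and 2, 9 and 103 without KO replicate 1 and 2). Of the 9 genes, 2 were called, and 0 with library totals only and without KO replicate 1. Cd4 and Cd8a then had log2 fold changes of -2.04 and -2.01 (library totals) and of -1.65 and -1.65 (without KO replicate 1). With 1 library left out, Cd4 ranged from -2.65 to -1.65, Cd8a from -2.57 to -1.65 and Cd8b1 from -2.32 to -1.09. Cd8b1 passed with no filter (-1.58), DESeq2 (-1.63), the replicate block (-1.71), and without control replicate 1 (-1.77) or KO replicate 2 (-2.32). An alternative added after seeing the data recomputed the filter on the 3 libraries left. It called 864, 805, 223 and 384 genes without control replicate 1, control replicate 2, KO replicate 1 and KO replicate 2. Cd4 and Cd8a were called in each of these, also without KO replicate 1 (-1.64 and -1.63), and Cd8b1 without control replicate 1 (-1.76), control replicate 2 (-1.40) and KO replicate 2 (-2.30). A group left with 1 library is assumed to vary like the other. The cause of these differences was not tested.

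The values of Runx1 turned sign with a minimum of 5 CPM (-0.036), and the log2 ratio of Cd4 to Cd8a without control replicate 1 (0.19, lowest -0.33 without control replicate 2). The fitted value of Zbtb7b (-0.81 with all libraries) was 0.085 with edgeR's newer setting, 0.56 with the replicate block, and -2.85 to 6.17 with 1 library left out (6.17 without control replicate 1, 0.060 without KO replicate 1, and 6.175 and 0.056 with the filter recomputed), and it rests on 11, 0, 2 and 16 reads. Without control replicate 1 the control has 0 reads, so 6.17 is a fitted value and no measured fold. The labels give both genotypes replicate numbers 1 and 2, and the differences between replicates had a correlation of 0.268 over 11018 genes. With 2 pairs this does not show that the numbers pair the samples, and the block leaves 1 residual degree of freedom.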

Other observations

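Promoter CpG content was set beside the calls of tested genes that have a promoter window, in classes chosen after the data were seen. Among tested genes with a promoter window and at least 10 CPM in the controls, 782 had at most 9 CpG dinucleotides in their richest window, as Cd8a has, and 11 of them (1.41%) were called lower in the KO and 2 (0.256%) higher. Of 4343 genes with 20 or more, as Runx1, Runx3, Cbfb and Patz1 have, 13 (0.299%) were called lower and 8 (0.184%) higher. The 1652 genes between held 5 of each. Median log2 fold changes were -0.094 with at most 9, 0.030 with 20 or more and 0.10 between. Cd8a is itself among the 11 called lower. The minimum level in the controls favours lower calls, so the split of lower and higher calls within a class cannot be read as a result. The difference between classes was not tested.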
